A study of Mus musculus with 6 samples.

Results

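The Hox cluster genes and their antisense transcripts were taken as every row whose symbol starts with Hoxa, Hoxb, Hoxc or Hoxd, plus Hotairm1. This gave 45 members of 31053 gene rows: 39 coding genes, 5 noncoding transcripts (Hotairm1, Hoxaas3, Hoxb3os, Hoxb5os and Hoxd3os1) and Hoxd4.1, a second row under the Hoxd4 name with no gene model of its own. The study profiled embryoid bodies of mouse embryonic stem cells with an HB9::GFP reporter, harvested at day 6 of a motor neuron protocol, by droplet single-cell RNA sequencing. WT libraries were unedited wild type cells, DeltaSP libraries came from CRISPR/Cas9-edited lncMN2_SP-/- cells and KO libraries from CRISPR/Cas9-edited lncMN2-/- cells, with 2 libraries in each of the 3 genotypes and 1 clone a library. All 6 libraries shared the reporter, the differentiation protocol and the day, and no dose or second treatment separated them. A genotype was therefore represented by 2 clones, and clone, library preparation and depth cannot be told apart from each other within it.

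Hox genes encode homeodomain transcription factors that give cells their position along the head-to-tail axis. They lie in 4 clusters, HoxA to HoxD, and are numbered by paralogue group from the end that is switched on first and farthest forward to the end that is used last and farthest back. Retinoic acid, a component of motor neuron protocols, activates the low-numbered end, and in the spinal cord Hox proteins with their Pbx and Meis partners set motor neuron columns and pools. Noncoding transcripts run on the opposite strand between and across the coding genes. Hotairm1, in HoxA, has been described as a transcript of the retinoic acid response of that end of HoxA.

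Differences between genotypes fell on 4 of the 5 noncoding members, so the annotated ends of these transcripts are shown first. Only counts per gene were used, so where the tags fell along each transcript is not known. The assay reads cDNA next to the poly(A) tail, and 1 tag was counted per molecule, so levels were not divided by length. Each sequence is the last 150 bases of the longest GENCODE M21 transcript on GRCm38, 5′ to 3′ in the transcript's direction, with the polyadenylation signals AATAAA or ATTAAA in capitals.
Hotairm1: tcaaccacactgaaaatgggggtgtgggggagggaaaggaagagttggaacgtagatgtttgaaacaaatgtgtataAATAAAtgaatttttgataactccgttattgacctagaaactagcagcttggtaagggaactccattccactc
Hoxb5os: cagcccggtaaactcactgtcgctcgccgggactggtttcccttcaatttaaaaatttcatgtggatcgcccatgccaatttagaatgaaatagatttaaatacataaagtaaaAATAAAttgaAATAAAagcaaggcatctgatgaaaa
Hoxaas3: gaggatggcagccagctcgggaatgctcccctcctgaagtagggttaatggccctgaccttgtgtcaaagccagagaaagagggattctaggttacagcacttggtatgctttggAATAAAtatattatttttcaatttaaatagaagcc
Hoxd3os1: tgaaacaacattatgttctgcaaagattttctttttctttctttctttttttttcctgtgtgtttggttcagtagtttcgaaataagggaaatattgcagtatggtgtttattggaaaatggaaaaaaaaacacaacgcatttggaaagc
Hoxb3os: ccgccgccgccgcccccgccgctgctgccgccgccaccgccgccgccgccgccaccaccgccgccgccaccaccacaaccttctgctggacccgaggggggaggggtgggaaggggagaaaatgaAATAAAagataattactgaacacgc
Hotairm1, Hoxaas3 and Hoxb3os each held 1 AATAAA in this window, Hoxb5os held 2, and Hoxd3os1 held none of the letters searched. The capitals start 73 bases before the end in Hotairm1, 35 in Hoxaas3, 25 in Hoxb3os, and 36 and 26 in Hoxb5os.

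Hotairm1 lies at chr6:52156902-52162119 on the plus strand, before Hoxa2. Hoxaas3 (chr6:52175217-52215076, plus strand) shares 297 exonic bases with Hoxa3 and 586 with Hoxa7. Its span also holds Hoxa4, Hoxa5 and Hoxa6 on the other strand, without shared exonic bases. Hoxb5os (chr11:96291024-96306910, minus strand) spans Hoxb6 and shares 100 exonic bases with Hoxb5. Hoxb3os (chr11:96343072-96354691, minus strand) shares 2250 exonic bases with Hoxb3 and 953 with Hoxb2, the widest overlap of the 5. Hoxd3os1 (chr2:74703248-74716130, minus strand) shares 347 exonic bases with models of both Hoxd3 and Hoxd4. The 3' libraries keep the strand of the RNA, but how overlapping genes were treated in counting is not given beyond standard Cell Ranger parameters.

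A filter of 1000 or more detected genes and no more than 10% mitochondrial UMIs kept 16225 cells of 24215 barcodes. Kept UMIs ran from 20318500 to 47927845 a library. WT replicate 1 stood apart: its 4499 cells had a median of 4157 UMIs, against 11898.5 to 15112 in the other libraries. Of the distinct barcodes, 69 occurred in more than 1 library. The transcript of the edited locus, 5330434G04Rik, measured 37.4 and 34.8 TMM-scaled CPM in WT, 22.4 and 23.3 in DeltaSP, and 0.12 and 0.17 in KO. The 7 motor neuron markers summed to between 582.3 and 817.2 CPM in the 6 libraries, and none was at 0. Genes of chromosome 11, where HoxB lies, took 10.7 and 10.3% of UMIs in WT and 13.3 to 13.8% in the 4 edited libraries. The median log2 change of tested chromosome 11 genes outside the clusters was 0.37 in both KO and DeltaSP against WT.

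Coding Hox RNA was present from the low-numbered end through group 8 and nearly stopped there. Coding members summed to 2546 and 2283 plain CPM (UMIs scaled to the library total) in WT, 2273 and 1638 in DeltaSP, and 2169 and 1669 in KO. Groups 4 and 5 gave 1078 and 1080 CPM of this in WT, groups 1 to 3 gave 826.2 and 608.4, and groups 6 to 8 gave 615.4 and 573.7. Group 9 gave 26.7 and 20.2 CPM in WT, 10.9 and 9.51 in DeltaSP, and 9.84 and 5.66 in KO. Groups 10 to 13 together stayed between 0.17 and 0.67 CPM in the 6 libraries. HoxB held most of the coding RNA (1734 and 1414 CPM in WT, 1641 and 1219 in KO), while HoxD held 14.3 to 22.3 CPM in the 6 libraries. The coding members of HoxA summed to 659.4 and 592.0 CPM in WT, 478.2 and 271.1 in DeltaSP, and 369.9 and 273.9 in KO. These sums are descriptions and were not tested.

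**Figure D1:**
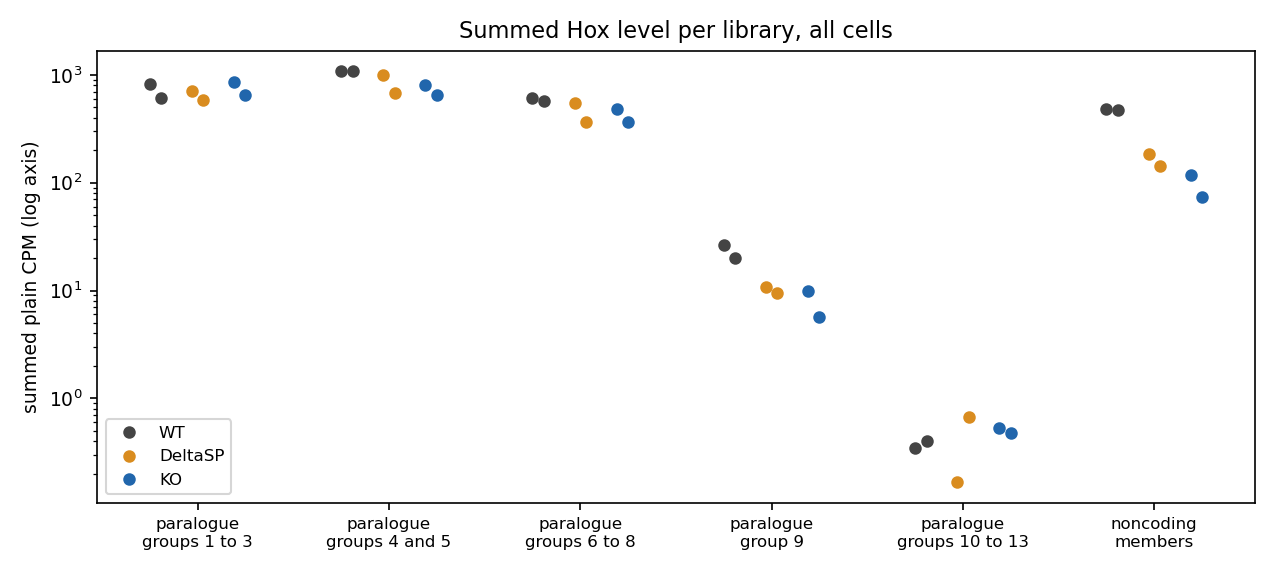
Summed plain CPM (log axis) of the coding members by paralogue groups and of the 5 noncoding members, 1 point per library, all kept cells. The noncoding sums of the 2 WT libraries (483.4 and 475.1) lie above all 4 edited libraries (74.4 to 182.7), while sums of groups 1 to 3 overlap between WT (608.4 and 826.2) and KO (650.5 and 859.2).

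Of the 45 members, 32 had enough UMIs to be tested over all cells. The other 13 were Hoxa6, Hoxa9, Hoxa10, Hoxa11, Hoxa13, Hoxc10, Hoxc11, Hoxc12, Hoxc13, Hoxd10, Hoxd11, Hoxd12 and Hoxd13. The highest of these, Hoxa6, had 21 UMIs over the 6 libraries, and 5 (Hoxa11, Hoxc11, Hoxc12, Hoxd10 and Hoxd12) had none in the kept cells. A count of 0 allows up to 3 UMIs, a limit that covers counting error only.

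KO against WT was tested with edgeR's quasi-likelihood test on library sums. In KO, 7 of the 32 tested members were lower and 0 higher at an adjusted p under 0.05, where 7.52% of all 14900 tested genes were called and 4.71% were called lower. The 7 were 4 of the 5 noncoding members, the coding genes Hoxa5 and Hoxb9, and Hoxd4.1. The median log2 change was -0.64 over the tested members and 0.00 over all tested genes, and 27 of the 32 members had a negative value. KO libraries lay wholly below WT for 20 members, wholly above for 3, and overlapped WT for 9, where 29.3% of all tested genes lay wholly below and 30.1% wholly above.

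Hotairm1, a noncoding transcript of HoxA, had the lowest adjusted p of the members. It measured 293 and 339 TMM-scaled CPM in WT, 90.03 and 92.7 in DeltaSP, and 63.0 and 30.5 in KO. Both WT libraries were high, both DeltaSP libraries lay between, and no genotypes overlapped. The log2 change in KO was -2.76 ± 0.32 (SE; edgeR adjusted p = 0.021), and the DeltaSP value was -1.79 ± 0.31 (edgeR adjusted p = 0.090).

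Hoxb5os, which runs across Hoxb6 toward Hoxb7, measured 168 and 105 in WT, 46.6 and 18.0 in DeltaSP, and 15.5 and 5.31 in KO on the same scale. The genotypes did not overlap, and the 2 libraries of each genotype differed more than for Hotairm1. The fall in KO was -3.72 ± 0.62 log2 (edgeR adjusted p = 0.029), the lowest value among the 32 members, and the median of chromosome 11 genes was 0.37 in the same comparison.

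Hoxaas3, antisense to Hoxa3 and Hoxa7, measured 56.6 and 28.5 CPM in WT, 20.1 and 15.6 in DeltaSP, and 12.1 and 9.09 in KO. It fell by 2.004 ± 0.33 log2 in KO (edgeR adjusted p = 0.029). Hoxd3os1 measured 14.0 and 11.96 CPM in WT, 4.35 and 4.93 in DeltaSP, and 3.21 and 1.68 in KO, and fell by 2.41 ± 0.32 log2 (edgeR adjusted p = 0.026). In both transcripts the 3 genotypes followed each other without overlap, WT highest and KO lowest. The share of all genes with such an order was not counted, here or for Hotairm1 and Hoxb5os. No member passed in KO against DeltaSP, so the step between the edited genotypes is a description only.

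Hoxb3os was the noncoding member that did not pass. It measured 24.2 and 8.59 CPM in WT, 14.2 and 17.9 in DeltaSP, and 16.2 and 19.97 in KO, with both edited genotypes between the 2 WT libraries. Its KO value was 0.16 ± 0.42 log2 (edgeR adjusted p = 0.83).

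The coding gene Hoxa5, which marks cervical to upper brachial levels, measured 477 and 360 CPM in WT, 235 and 101 in DeltaSP, and 129 and 62.8 in KO. WT lay above DeltaSP and KO, while DeltaSP and KO overlapped. It fell by 2.13 ± 0.46 log2 in KO (edgeR adjusted p = 0.042). Hoxb9, the group 9 gene with the most RNA here, measured 28.0 and 18.7 in WT, 9.18 and 7.29 in DeltaSP, and 6.72 and 3.72 in KO, a fall of 2.16 ± 0.33 log2 (edgeR adjusted p = 0.026). Hoxd4.1 had 39 and 16 UMIs in WT, 12 and 12 in DeltaSP, and 6 and 4 in KO, and fell by 3.17 ± 0.73 log2 (edgeR adjusted p = 0.047). Its reads may be shared with Hoxd4, which had 1 to 13 UMIs a library, so its identity is uncertain. The Hoxd4.1 call was kept in 10 alternatives and lost in 6.

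**Figure D2:**
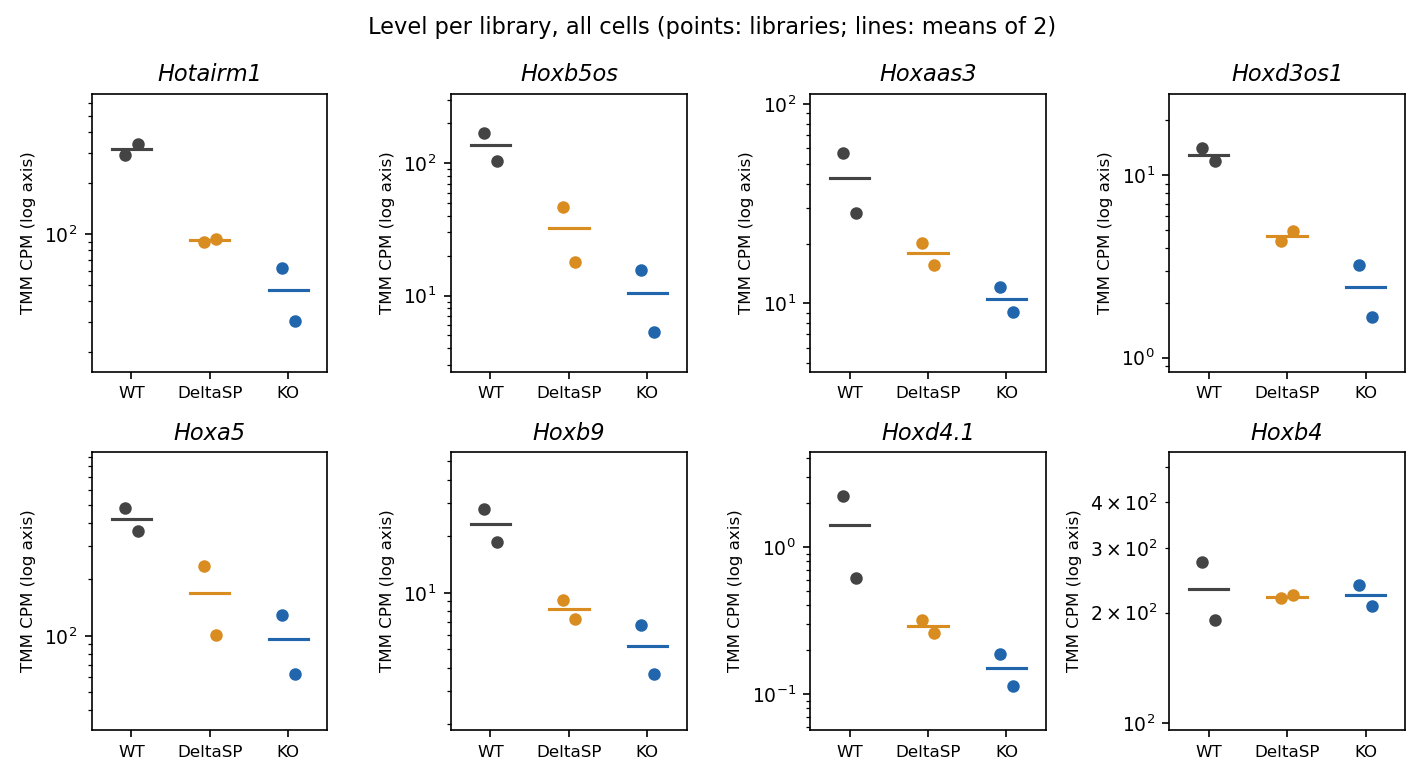
TMM-scaled CPM per library (log axis) of the 7 members called in KO against WT over all cells, with Hoxb4 as a member that was not called. Points are libraries and lines are means of 2. Hotairm1 stood at 293 and 339 in WT and at 63.0 and 30.5 in KO, whereas Hoxb4 stood at 274 and 191 in WT and at 239 and 208 in KO.

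The other members with over 20 CPM did not pass in KO against WT. In groups 1 to 3, Hoxb2, used in the hindbrain and neck, had the highest level of all members, with 597 and 356 CPM in WT, 410 and 378 in DeltaSP, and 531 and 337 in KO. Its KO value was -0.14 ± 0.30 log2 (edgeR adjusted p = 0.79). Hoxb3 measured 141 and 94.6 CPM in WT, 114 and 86.6 in DeltaSP, and 105 and 95.3 in KO. Both HoxB genes overlapped between all genotypes.

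Hoxa2, the gene past the end of Hotairm1, measured 84.5 and 71.9 CPM in WT, 74.2 and 78.5 in DeltaSP, and 91.5 and 90.7 in KO. Its KO value was 0.22 ± 0.14 log2 (edgeR adjusted p = 0.31). Hoxa3 measured 55.5 and 41.3 CPM in WT, 41.3 and 28.2 in DeltaSP, and 34.4 and 31.8 in KO (log2 -0.55 ± 0.22).

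In groups 4 and 5, Hoxb4 measured 274 and 191 CPM in WT, 220 and 223 in DeltaSP, and 239 and 208 in KO, with overlapping genotypes. Hoxb5, the gene overlapped by Hoxb5os, measured 272 and 227 CPM in WT, 257 and 205 in DeltaSP, and 209 and 128 in KO (log2 -0.57 ± 0.25, edgeR adjusted p = 0.18). Hoxa4 measured 72.7 and 83.6 CPM in WT, 74.3 and 49.5 in DeltaSP, and 56.7 and 40.5 in KO (log2 -0.69 ± 0.24). KO lay below WT for Hoxb5 and Hoxa4 without passing the test. Hoxc4 measured 113 and 194 CPM in WT, 125 and 105 in DeltaSP, and 97.5 and 106 in KO. Hoxc5 measured 30.9 and 64.3 CPM in WT, 46.7 and 31.5 in DeltaSP, and 30.1 and 34.9 in KO. The 2 WT libraries differed from each other more than the edited ones did for both HoxC genes.

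In groups 6 to 8, Hoxb6 measured 299 and 299 CPM in WT, 258 and 131 in DeltaSP, and 194 and 101 in KO (log2 -1.02 ± 0.38, edgeR adjusted p = 0.13). Hoxb7 measured 71.3 and 56.8 CPM in WT, 57.8 and 57.0 in DeltaSP, and 61.8 and 55.1 in KO. Hoxb8 measured 313 and 221 CPM in WT, 208 and 181 in DeltaSP, and 188 and 159 in KO (log2 -0.62 ± 0.20, edgeR adjusted p = 0.098). KO lay below WT for Hoxb6 and Hoxb8 and overlapped WT for Hoxb7. Among rarer members, Hoxc6 stood at 6.68 and 3.14 CPM in WT and at 1.52 and 1.62 in KO (log2 -1.63 ± 0.42, edgeR adjusted p = 0.060). The other rare members tested, Hoxa7, Hoxb1, Hoxb13, Hoxc8, Hoxc9, Hoxd1, Hoxd3, Hoxd4, Hoxd8 and Hoxd9, did not pass.

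**Figure D3:**
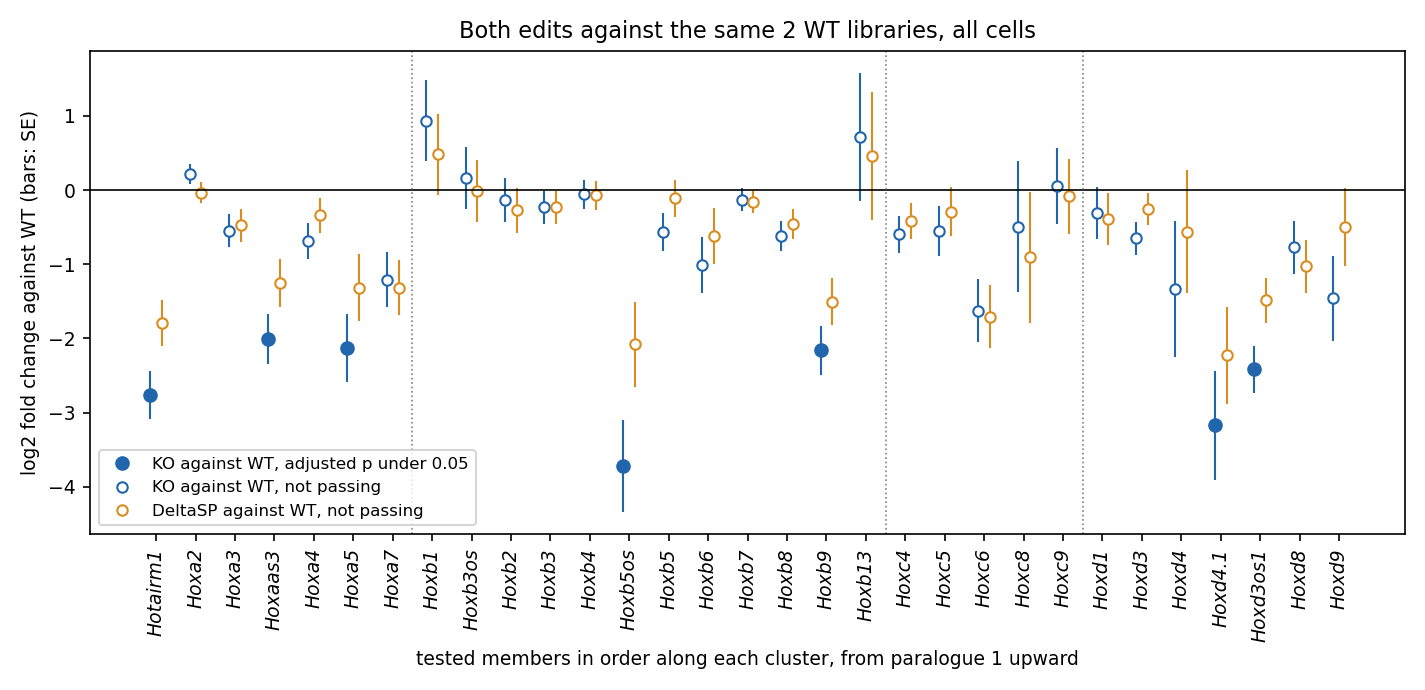
Log2 fold change against WT with its SE for 31 of the 32 tested members, in order along HoxA, HoxB, HoxC and HoxD (dotted lines part the clusters), KO in blue and DeltaSP in orange, both against the same 2 WT libraries. Filled points passed an adjusted p of 0.05, and the 7 filled points are all KO values below 0.

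In DeltaSP against WT, 0 of the 32 members passed with edgeR, where 0.356% of all tested genes did. At an unadjusted p under 0.05 there were 11 members (17.1% of all genes), and DESeq2's Wald test called 7 (4.05%). The median over members was -0.47 log2, and 30 of 32 values were negative. KO against DeltaSP also gave 0 calls with edgeR, with a background of 0.00671% (1 gene), 3 members at an unadjusted p under 0.05 (5.46% of all genes) and 0 calls with DESeq2 (0.342%). Both edits were set against the same WT libraries, so their values for a member share those 2 measurements.

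The counts depended on single libraries, as did the counts over all genes. Without WT replicate 1, 0 members were called in KO against WT over all cells (0.0979% of all genes), and without KO replicate 2 also 0 (0.0258%). Without KO replicate 1 there were 2 (0.212%), and without WT replicate 2 there were 12 (20.7%).

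Ratios within a library do not depend on its scaling. For every 100 UMIs of Hoxb5, Hoxb5os had 61.9 and 46.0 in WT, 18.1 and 8.79 in DeltaSP, and 7.40 and 4.14 in KO. For every 100 UMIs of Hoxa2, Hotairm1 had 347.1 and 472.1 in WT, 121.3 and 118.1 in DeltaSP, and 68.8 and 33.6 in KO. WT lay above both edited genotypes in both ratios. For every 100 UMIs of Hoxd3, Hoxd3os1 had 106.0 and 108.3 in WT, 51.6 and 41.5 in DeltaSP, and 44.6 and 20.3 in KO. Hoxa5 had 655.9 and 430.4 UMIs for every 100 of its neighbour Hoxa4 in WT, 316.3 and 205.1 in DeltaSP, and 227.3 and 155.3 in KO. The ratio of Hoxb3os to Hoxb3 overlapped between genotypes, with 17.2 and 9.08 in WT and 15.5 and 20.9 in KO. These ratios show unequal change of 2 transcripts and not which of them changed.

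Values of a noncoding RNA outside the clusters and of short transcripts are given beside these members. Malat1, an abundant nuclear noncoding RNA, measured 26299 and 19446 TMM-scaled CPM in WT, 11858 and 12972 in DeltaSP, and 10868 and 8357 in KO. Its KO value was -1.25 ± 0.31 log2 over all cells (edgeR adjusted p = 0.052), and it was lower in the motor neuron range (log2 -1.15 ± 0.28, edgeR adjusted p = 0.047). The 1477 tested genes with the shortest transcripts, at most 1280 bases, had a median of -0.39 log2 in KO against WT, and they include Hotairm1 (713 bases) and Hoxb5os (596 bases). With each library's trend with length removed, the same 7 members were called. The part of Malat1 and of nuclear RNA in the result was not tested.

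Cells were then divided by markers that include no Hox gene, after thinning each cell to 3000 UMIs. The motor neuron range had at least 10 pan-neuronal and 3 motor neuron UMIs and held 337 to 890 cells a library, and the progenitor range had at most 3 pan-neuronal and at least 5 neural progenitor UMIs and held 389 to 1332. Both are ranges of a score and not cell types. Pan-neuronal genes were lower in KO over all cells for 7 of 15 (4.71% of all genes were). Neural progenitor genes were higher for 3 of 14 (2.81%). In such sums fewer cells of a type and less RNA per cell cannot be told apart. The progenitor range held 13.2 and 24.1% of kept cells in WT, 31.6 and 37.0% in DeltaSP, and 38.4 and 49.3% in KO. The motor neuron range held 19.8 and 27.4%, 23.9 and 16.8%, and 19.0 and 16.0%. Kept cells under 3000 UMIs, 936 of them in WT replicate 1, fell in neither range. The part of these shares in the differences over all cells was not tested.

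In the progenitor range, 6 of 29 tested members were lower in KO than in WT (2.22% of genes called, 2.02% lower): Hotairm1, Hoxaas3, Hoxb5os, Hoxb9, Hoxd3os1 and Hoxd4.1. Hotairm1 measured 282 and 293 CPM in WT, 78.3 and 74.1 in DeltaSP, and 52.6 and 26.3 in KO there. Hoxb5os measured 289 and 189 in WT, 78.1 and 21.03 in DeltaSP, and 20.8 and 5.43 in KO. The genotypes did not overlap for either, and the share of all genes without such overlap was not counted there. Hoxb9 fell from 43.3 and 25.6 CPM in WT to 6.52 and 3.105 in KO, with 10.6 and 6.63 in DeltaSP (log2 -2.83 ± 0.42, edgeR adjusted p = 0.033). Hoxd4.1 had 13 and 14 UMIs in WT and 0 and 1 in KO, too few for a fold change to be given.

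In the motor neuron range, 7 of 26 tested members were lower in KO than in WT (7.12% of genes called, 4.78% lower): Hotairm1, Hoxaas3, Hoxb5os, Hoxd3os1, Hoxa5, Hoxb8 and Hoxb9. Hoxa5 measured 670 and 611 CPM in WT, 380 and 180 in DeltaSP, and 207 and 81.8 in KO (log2 -2.15 ± 0.46, edgeR adjusted p = 0.033). Hoxb8 measured 210 and 135 CPM in WT, 89.4 and 88.3 in DeltaSP, and 94.9 and 76.0 in KO (log2 -1.01 ± 0.22, edgeR adjusted p = 0.036). Both WT libraries were above all 4 edited ones for these genes. The Hoxb8 call was kept in 11 alternatives and lost in 6. Markers also differed within the ranges. In the motor neuron range 4 of 15 pan-neuronal genes were lower in KO, and of 13 neural progenitor genes 3 were higher and 1 lower. The neural progenitor markers summed there to 362.1 and 415.7 CPM in WT, 448.7 and 504.8 in DeltaSP, and 560.7 and 626.5 in KO. In the progenitor range 3 of 15 pan-neuronal genes were lower in KO (2.02% of all genes were). The part of such shifts in the Hox differences was not tested.

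DeltaSP against WT gave 1 call in the motor neuron range, Hoxb9 (0.267% of genes called, 0.113% lower), and 0 in the progenitor range (0.0158%, with 12 members at an unadjusted p under 0.05, where 12.4% of genes were, and 4 by DESeq2, where 1.41% were). Hoxb9 measured 5.18 and 7.85 CPM in WT, 0.73 and 0.91 in DeltaSP, and 1.61 and 1.70 in KO in the motor neuron range (DeltaSP log2 -3.00 ± 0.39, edgeR adjusted p = 0.044). That call was lost in 8 of 17 alternatives: without WT replicate 1, without either DeltaSP library, without either KO library, with thinned sums, in a fit of only the 2 genotypes, and without the cells with the most UMIs (edgeR adjusted p up to 0.17). Without KO replicate 2 the KO counts were 0 in the motor neuron range (0.0232% of genes) and 1 in the progenitor range (0.0305%), and without KO replicate 1 they were 3 (0.293%) and 1 (0.0227%). Without WT replicate 1 the progenitor range gave 1 (0.153%). KO against DeltaSP gave 0 member calls with edgeR and with DESeq2 in both ranges (0.00789% of genes in the progenitor range and 0.0162% in the motor neuron range by edgeR, 0.118% and 0.485% by DESeq2). At an unadjusted p under 0.05 there were 4 members in the progenitor range (5.33% of genes) and 5 in the motor neuron range (6.35%).

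The ranges themselves differed along the clusters. With the library as a block, 21 of 26 members passed (82.4% of all tested genes did), 9 higher and 12 lower in the motor neuron range (40.4% and 42% of all genes). The members that were higher included Hoxc4, Hoxc5, Hoxa4, Hoxa5, Hoxb5, Hoxa3, Hotairm1 and Hoxb4, among them all 6 tested coding genes of groups 4 and 5. The members that were lower were Hoxb5os, Hoxb9, Hoxb3os, Hoxb8, Hoxb3, Hoxb6, Hoxa7, Hoxb2, Hoxd8, Hoxb7, Hoxa2 and Hoxaas3. The Hoxaas3 call was lost in 8 of 16 alternatives, among them DESeq2 (adjusted p = 0.068) and the fits without WT replicate 1 (edgeR adjusted p = 0.17), DeltaSP replicate 1 (0.11) or KO replicate 2 (0.093). The share that passed is close to that of all genes, so the number of passing members is no result about the clusters.

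The 4 largest rises were Hoxc4 (log2 1.93 ± 0.17), Hoxc5 (1.46 ± 0.21), Hoxa4 (1.30 ± 0.15) and Hoxa5 (1.26 ± 0.10), all with edgeR adjusted p-values of 2.6e-05 or lower. Hoxa4 measured 51.8 and 40.9 CPM in WT, 34.2 and 28.2 in DeltaSP, and 35.0 and 34.5 in KO in the progenitor range, against 100.2 and 147 in WT, 125 and 81.2 in DeltaSP, and 83.6 and 47.2 in KO in the motor neuron range. The gene was higher in the motor neuron range in each of the 6 libraries.

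The 5 largest falls were Hoxb5os (log2 -2.57 ± 0.15), Hoxb9 (-2.39 ± 0.25), Hoxb3os (-1.75 ± 0.13), Hoxb8 (-1.37 ± 0.09) and Hoxb3 (-1.18 ± 0.05), all of HoxB. Hoxb3os measured 30.3 and 12.5 CPM in WT, 20.2 and 21.7 in DeltaSP, and 19.2 and 24.4 in KO in the progenitor range, and 12.8 and 3.46, 5.51 and 6.80, and 7.91 and 4.96 in the motor neuron range. Hoxb3 measured 185 and 132 CPM in WT, 146 and 106 in DeltaSP, and 130 and 108 in KO against 84.2 and 61.7, 62.6 and 54.7, and 53.7 and 51.3. Hoxb8 measured 380 and 294 CPM in WT, 299.6 and 236 in DeltaSP, and 247 and 191 in KO in the progenitor range, with its motor neuron range values given above. These genes were lower in the motor neuron range in each library.

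**Figure D4:**
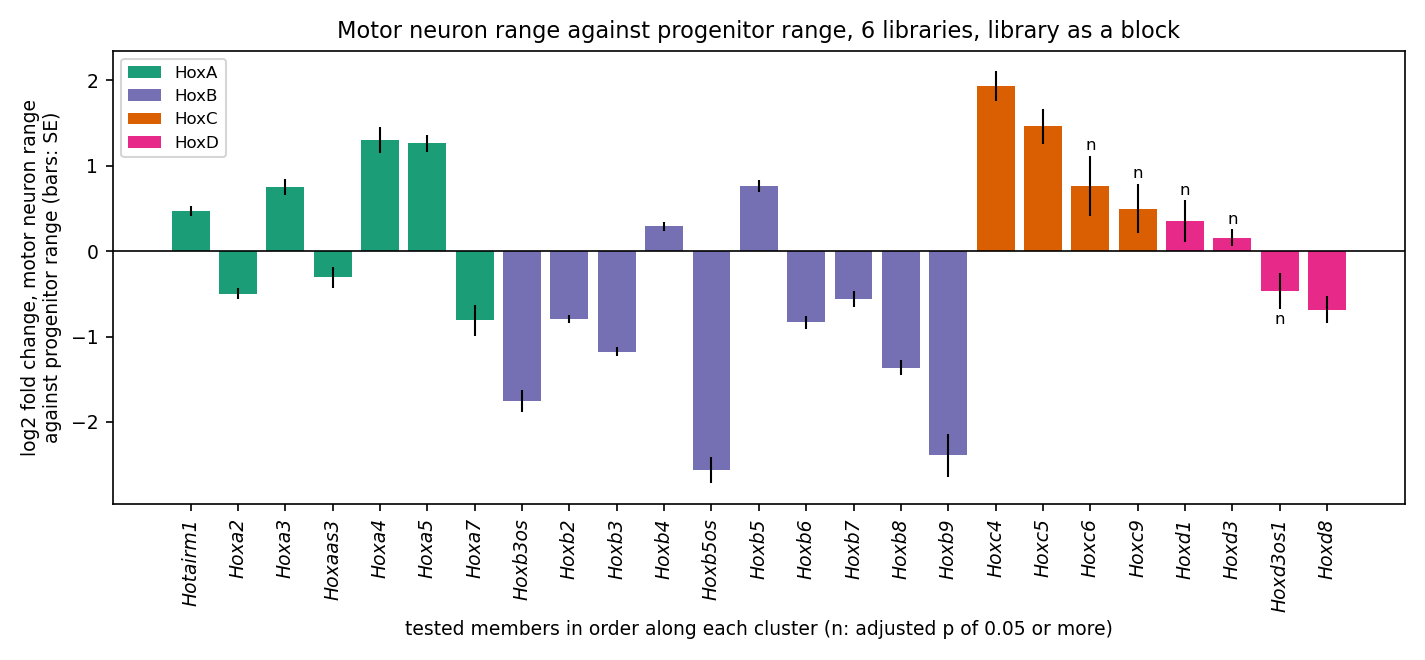
Log2 fold change of the motor neuron range against the progenitor range with its SE for 25 of the 26 tested members, in order along each cluster, 6 libraries with the library as a block. Bars marked n did not pass. The tested HoxC genes lie above 0 and 8 of the 10 HoxB members below it.

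The KO difference was then compared between the ranges, in 1 model with a genotype by range term. Hoxc4, a gene of cervical and brachial levels, passed (edgeR adjusted p = 0.048) with a difference of -1.29 ± 0.26 log2, where 0.763% of all genes passed in this term. In the progenitor range it measured 34.4 and 52.1 CPM in WT, 47.4 and 61.0 in DeltaSP, and 49.7 and 75.1 in KO. In the motor neuron range it measured 198 and 376 CPM in WT, 215 and 202 in DeltaSP, and 195 and 160 in KO. Neither range alone gave a call, and the call ended without WT replicate 2 (edgeR adjusted p = 0.32) or KO replicate 2 (0.28). Hoxc5 had a term of -1.56 ± 0.34 log2 (edgeR adjusted p = 0.063). It measured 10.7 and 21.8 CPM in WT, 18.1 and 20.7 in DeltaSP, and 18.4 and 28.3 in KO in the progenitor range, and 48.4 and 115 in WT, 74.2 and 50.8 in DeltaSP, and 48.3 and 35.9 in KO in the motor neuron range. WT replicate 2 was the highest library of both genes in the motor neuron range. For DeltaSP against WT and KO against DeltaSP this term gave 0 member calls with edgeR (0.0325% and 0% of all genes called, 4 members at an unadjusted p under 0.05 in each, where 8.94% and 4.18% of genes were). DESeq2 was not run for this term.

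**Figure D5:**
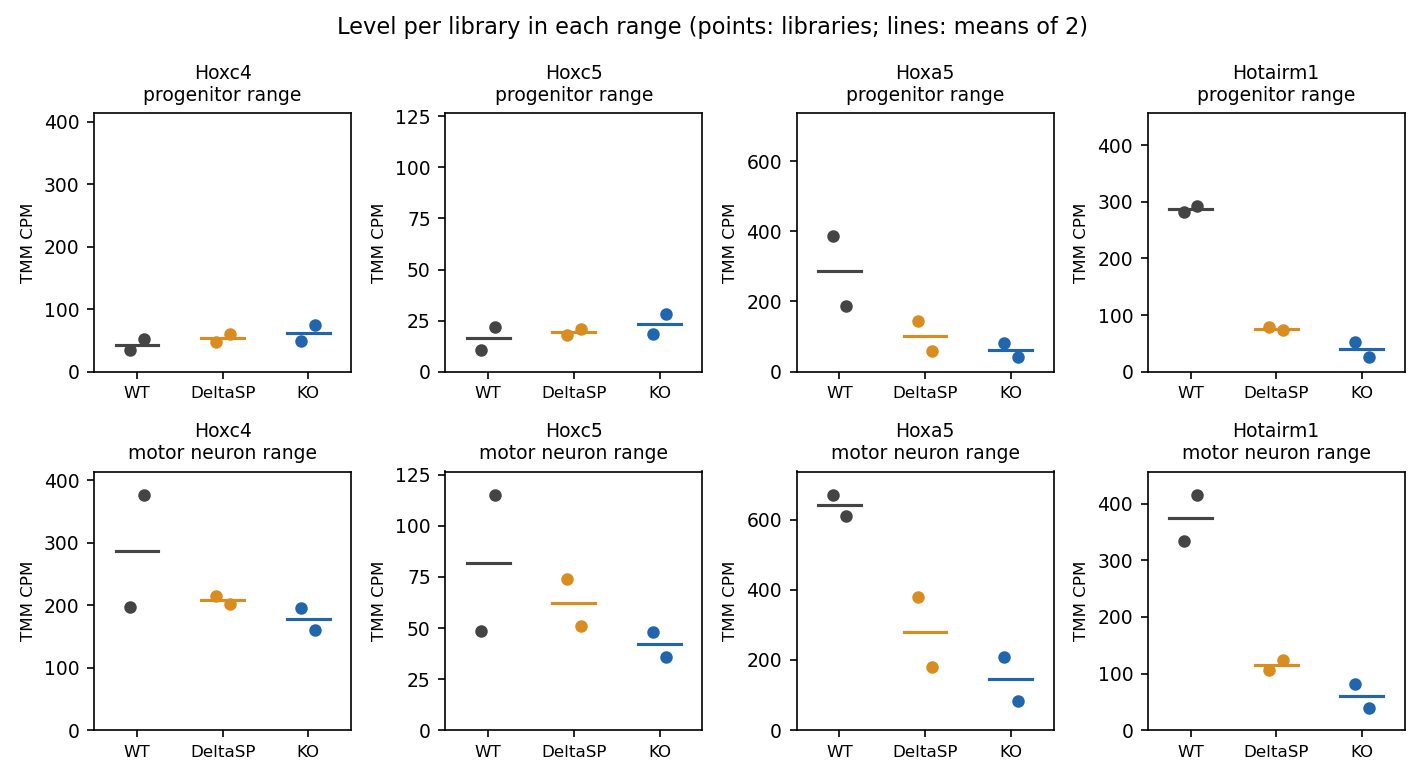
TMM-scaled CPM per library of Hoxc4, Hoxc5, Hoxa5 and Hotairm1 in the progenitor range (top) and the motor neuron range (bottom), on 1 axis a gene. Points are libraries and lines are means of 2. Hotairm1 and Hoxa5 are higher in WT than in KO in both ranges, whereas Hoxc4 in KO is at 49.7 and 75.1 in the top panel against 34.4 and 52.1 in WT.

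Within cells thinned to 3000 UMIs, a Hotairm1 UMI was found in 46.4 and 53.5% of motor neuron range cells in WT, 20.3 and 25.2% in DeltaSP, and 18.8 and 9.20% in KO. The unthinned levels had the same order of genotypes. No cell class known to lack Hox RNA was at hand, and Chat, a cholinergic gene, served as a rough gauge of free RNA. Its UMIs were in 23.4 to 28.5% of motor neuron range cells and in 0.19 to 0.60% of progenitor range cells. Chat is 1 of the motor neuron markers that define the motor neuron range, so its share there is partly set by that choice. The progenitor range allows at most 3 pan-neuronal UMIs a cell, which may also lower the Chat share there. The gauge was not scaled to the level of any Hox member. Motor neuron range cells with a Hotairm1 UMI held a Hoxa5 UMI more often than cells without one in each library, for example 78.5 against 52.0% in WT replicate 1 and 38.7 against 15.7% in KO replicate 2. In the progenitor range this was so in 4 of the 6 libraries, whereas WT replicate 2 (39.6 against 41.1%) and DeltaSP replicate 1 (29.2 against 32.4%) went the other way. For Hoxa2 the shares in the motor neuron range were lower with Hotairm1 than without in 5 of the 6 libraries. WT replicate 1 had 11.9 against 17.8% in that range. These shares are descriptions over cells of 1 library and carry no test.

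Promoters are shown for Hoxa5, the called coding gene with the most RNA, and Hoxc4, which differed between ranges. Each is the 250 bases before the start of the gene in RefSeq on GRCm38.p6. The Hoxc4 window lies within the GENCODE M21 model of Hoxc4 (chr15:103018934-103036852, plus strand), which starts before it. The window is therefore not the only annotated start of that gene. Capitals mark AGGTCA or AGTTCA on either strand, the hexamers bound by retinoic acid receptors.
Hoxa5, chr6:52204588-52204837, minus strand: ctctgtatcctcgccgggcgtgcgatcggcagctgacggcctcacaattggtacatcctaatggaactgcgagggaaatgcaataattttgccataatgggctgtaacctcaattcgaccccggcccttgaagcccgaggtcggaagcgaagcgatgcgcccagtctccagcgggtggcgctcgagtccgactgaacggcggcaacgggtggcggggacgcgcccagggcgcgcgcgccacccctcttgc
Hoxc4, chr15:103034145-103034394, plus strand: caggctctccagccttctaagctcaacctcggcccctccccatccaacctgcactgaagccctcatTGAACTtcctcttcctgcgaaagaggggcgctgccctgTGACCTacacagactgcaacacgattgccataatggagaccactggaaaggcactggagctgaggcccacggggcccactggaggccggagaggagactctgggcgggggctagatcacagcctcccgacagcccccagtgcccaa
The Hoxa5 window held 0 of these hexamers and 28 CpG, and the Hoxc4 window held 2 and 8 CpG. Over 26 promoters found for 24 members, AGGTCA was in 6 (23.1%, against 14.0% of 32851 promoters), AGTTCA in 2 (7.69%, against 11.8%), and neither hexamer was repeated with 5 bases between in any. A match is a description of letters and not of binding.

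Partners and regulators of Hox genes were read from lists. Of 12 Hox cofactors, 2 were lower in KO over all cells, where 4.71% of all genes were. Tshz2, a teashirt zinc finger gene, fell by 2.53 ± 0.19 log2 from 133 and 106 CPM in WT to 23.6 and 17.9 in KO, with 47.3 and 45.1 in DeltaSP. Meis2, a Hox partner of the homeodomain class, fell by 0.76 ± 0.16 log2 from 486 and 402 CPM to 264 and 262, with 308 and 321 in DeltaSP. Tshz2 was also called in DeltaSP (log2 -1.37 ± 0.18, edgeR adjusted p = 0.043). The list's median was -0.41 in KO against WT.

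Of the upstream axial factors, the caudal genes Cdx1, Cdx2 and Cdx4 had 0 to 3 UMIs a library. Of 20 Polycomb and trithorax genes, which keep Hox clusters silent or active, 1 passed: Suz12 rose by 0.89 ± 0.16 log2, from 59.0 and 50.9 CPM to 98.2 and 106. That share is below the 7.52% of all genes called, so the count is no result about the list. Suz12 lies on chromosome 11, with the median shift given above. Of 16 motor neuron column and pool genes, 1, Pou3f1, fell in KO over all cells (125 and 58.7 CPM in WT, 52.3 and 14.9 in DeltaSP, 17.4 and 13.6 in KO), a share close to that of all genes. In the motor neuron range 1 of the 16 was higher and 2 were lower in KO (7.12% of genes called, 4.78% lower). The 1 that was higher is also a marker that defines this range. In the genotype by range term for KO 1 of the 16 passed, where 0.763% of all genes did. Mesoderm markers summed to 42.6 to 72.5 CPM in the 6 libraries, and the hindbrain and visceral motor markers to 8.17 and 80.2 in WT, 15.2 and 61.9 in DeltaSP, and 73.1 and 92.8 in KO. The part of these cell types in the Hox results was not tested beyond leaving out mesoderm-list cells, which kept the same 7 calls.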

How the data were processed

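Gene expression was measured in 6 droplet 3' libraries of embryoid bodies, grouped by genotype from the labels. The authors deposited raw UMI counts per gene and barcode, with no normalization. Per the submitters' processing notes and design text, they were made with Cell Ranger 4.0 on mm10 with Ensembl release 93. Each barcode held at least 500 UMIs.

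UMI counts of kept cells were summed per library and tested for all genes in edgeR 4.0.16 (R 4.3.3; TMM, filterByExpr, quasi-likelihood, Benjamini-Hochberg threshold 0.05, SE as the log2 change over the root of F), with all 3 genotypes in 1 fit. CPM in comparisons carry TMM factors and summed levels are plain CPM. p-values measure the spread between libraries. On simulated counts of 14900 genes for KO against WT over all cells, 33% of 2-fold and 81% of 4-fold changes were recovered with 11 false calls. No doublet caller was run, and leaving out the 5% of cells with the most UMIs was tried instead. Alternatives were DESeq2 1.42.0, other scaling, filters, cuts, thinned sums, a replicate block and leaving out each library.

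Members, lists and rules were chosen with earlier results of these data known. Members are named with values where they passed in a genotype comparison or the interaction, or averaged at least 20 CPM; between ranges the 5 largest changes each way; list genes only where they passed. Some genes that these rules name are not reported here. Positions and promoters come from GENCODE M21 and RefSeq tables, and 44 of 45 members matched a gene model.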

Additional observations from a re-analysis of the deposited data

Results flagged for a closer look

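The KO difference of Hoxc4 was not the same in both ranges by the test of the difference itself, with -1.29 ± 0.26 log2 in the motor neuron range minus the progenitor range (edgeR adjusted p = 0.048). The Hoxc4 values in each library stand in the report, and the term was no longer past the threshold without WT replicate 2 or KO replicate 2. Over the alternatives run, its edgeR adjusted p went from 1.3e-27 with no filter on low counts to 0.32 without WT replicate 2.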

How the results depend on the processing

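No member called in a main fit turned its direction in that comparison under any alternative in which it was tested. The direction of members that were not called was not followed. In KO against WT, edgeR calls over members (7 over all cells, 6 in the progenitor range, 7 in the motor neuron range) were 15, 12 and 15 with no filter on low counts (14.9, 7.48 and 11.3% of all genes), and 12 over all cells by DESeq2 (16%). In DeltaSP against WT (0, 0 and 1), no filter gave 12, 10 and 12 (5.81, 3.39 and 5.23%), DESeq2 7, 4 and 7 (4.05, 1.41 and 2.16%), and a fit of only the 2 genotypes 1 over all cells (0.288%) and 1 in the progenitor range (0.0417%). Thinned sums gave 1 in the progenitor range (0.0932%) and 0 in the motor neuron range (0.233%), where leaving out the cells with the most UMIs also gave 0 (0.361%). In KO against DeltaSP (0 in each), no filter gave 5, 6 and 5 (1.85, 2.08 and 2.08%). In the interaction (KO against WT 1, DeltaSP against WT 0, KO against DeltaSP 0), no filter gave 8, 6 and 4 (3.85, 1.16 and 0.279%). Leaving out 1 library gave 0 to 12, 1 to 8 and 0 to 9 calls in KO against WT over all cells, the progenitor range and the motor neuron range, 0 to 7, 0 to 1 and 0 to 5 in DeltaSP against WT, and 0 to 5 (KO) and 0 to 1 (DeltaSP) in the interaction. The shares of all genes in these fits ran from 0.0258 to 20.7%, 0.0227 to 9.93% and 0.0232 to 15.5% in KO against WT, 0.00643 to 7.13%, 0.0228 to 0.266% and 0.0387 to 5.08% in DeltaSP against WT, and 0.00812 to 2.81% (KO) and 0.0162 to 0.623% (DeltaSP) in the interaction. The replicate block gave 8, 8 and 9 calls in KO against WT (6.81, 1.58 and 6.51%) and 1, 1 and 2 in DeltaSP against WT (0.148, 0.0395 and 0.178%); the numbers pair no samples, with correlations of -0.02, 0.14 and 0.03 between genotypes. With TMM factors the WT sums were 2648 CPM for coding members (plain 2414) and 524.4 for noncoding members (plain 479.2). Of the named members' values under settings other than leaving out a library, 424 kept their call and 18 lost it, and with 1 library left out 194 kept it and 64 lost it; the cause was not tested. These counts pool the comparison of ranges with the genotype comparisons. Most members kept their call in every alternative in the comparison of ranges, and most losses fell in the genotype comparisons. Hoxaas3 lost its difference between ranges in 8 of 16 alternatives, and Hoxb9 in DeltaSP against WT in the motor neuron range in 8 of 17. The length and mesoderm settings were chosen after seeing the data. The 13 members not tested had 0 to 21 UMIs over the 6 libraries.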
